A study of Mus musculus with 40 samples.

Results

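The interferon-gamma (IFN-γ) receptor and signaling genes described here are 8 of the 39012 genes in the deposited tables: the receptor chains Ifngr1 and Ifngr2, the receptor kinases Jak1 and Jak2, the transcription factor Irf1, the feedback inhibitors Socs1 and Socs3, and the tryptophan-degrading enzyme Ido1. They were chosen by name, as the rows whose Ensembl mouse gene identifier carries one of these symbols, and all 8 were found. RNA was measured by sequencing in EMT-6 tumors, which grow from a BALB/c mouse mammary carcinoma line, after placement in the right mammary pad of immunocompetent female Balb/C mice aged 8 to 12 weeks. Dosing began 20 days after inoculation, at a mean tumor volume near 400 mm3, and tumors were taken on day 6. Each group received intravenous doses on days 0, 1 and 2.

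The bifunctional group (n = 10) received 492 µg of an anti-PD-L1 antibody fused to a TGF-β trap. The trap control group (n = 10) received 492 µg of the same format with a mutated anti-PD-L1 arm. The anti-PD-L1 group (n = 10) received 400 µg of the antibody without a trap, and the isotype control group (n = 10) received 400 µg of an inactive anti-PD-L1. All tumors came from 1 cell line. The libraries were placed in 2 sets by their codes together with their share of structural RNA, given below. The codes run without a gap, and the labels do not mark the sets. Set 1 holds the 10 isotype control libraries and 6 of the trap control (C0449 to C0464), and set 2 holds the other 4 trap control libraries with all 10 anti-PD-L1 and all 10 bifunctional libraries (C0465 to C0488). Comparisons were therefore made within a set: bifunctional over anti-PD-L1, bifunctional over trap control and trap control over anti-PD-L1 in set 2, and trap control over isotype control in set 1. They ask what the trap arm adds to PD-L1 blockade, what PD-L1 blockade adds to the trap, and what the trap does alone.

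IFN-γ is made mainly by T cells and NK cells and binds a receptor built from IFNGR1, the ligand-binding chain, and IFNGR2, the chain needed for signaling. JAK1 is bound to IFNGR1 and JAK2 to IFNGR2, and once activated they phosphorylate STAT proteins, which bind GAS elements in target promoters such as that of Irf1. IRF1 in turn drives a second wave of genes for antigen presentation and defense, while SOCS1 and SOCS3 inhibit JAK activity as negative feedback, SOCS3 being best known downstream of gp130 cytokines. IDO1 starts the breakdown of tryptophan along the kynurenine route, and in tumors this system is known both for antitumor immunity and for inducing PD-L1 and IDO1 as brakes on T cells.

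The promoters of the members with a measured difference or a known STAT or IRF input are shown first, from RefSeq (GRCm38.p6), 250 bases before to 50 after the start site, 5′ to 3′ on the gene's strand. Capitals mark a GAS motif (TTCNNNGAA) or an IRF-like motif (GAAANNGAA), both searched on both strands. The 2 receptor promoters, shown because their transcripts are the ones that passed the test in bifunctional tumors, held neither motif: Ifngr1 at chr10:19591699-19591998 on the plus strand and Ifngr2 at chr16:91546809-91547108 on the plus strand.
Ifngr1: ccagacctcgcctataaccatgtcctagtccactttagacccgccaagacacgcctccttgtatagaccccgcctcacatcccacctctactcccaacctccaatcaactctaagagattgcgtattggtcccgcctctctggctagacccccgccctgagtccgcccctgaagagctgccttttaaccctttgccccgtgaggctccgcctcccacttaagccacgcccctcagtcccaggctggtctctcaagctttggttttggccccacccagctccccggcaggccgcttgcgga
Ifngr2: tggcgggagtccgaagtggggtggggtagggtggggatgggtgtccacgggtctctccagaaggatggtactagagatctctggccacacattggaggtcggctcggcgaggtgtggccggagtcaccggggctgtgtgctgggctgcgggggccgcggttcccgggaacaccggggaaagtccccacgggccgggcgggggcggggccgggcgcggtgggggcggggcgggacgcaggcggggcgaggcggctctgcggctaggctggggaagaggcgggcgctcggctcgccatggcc
Irf1 (chr11:53769764-53770063, plus strand) held 1 GAS match beginning 90 bases before the start site.
Irf1: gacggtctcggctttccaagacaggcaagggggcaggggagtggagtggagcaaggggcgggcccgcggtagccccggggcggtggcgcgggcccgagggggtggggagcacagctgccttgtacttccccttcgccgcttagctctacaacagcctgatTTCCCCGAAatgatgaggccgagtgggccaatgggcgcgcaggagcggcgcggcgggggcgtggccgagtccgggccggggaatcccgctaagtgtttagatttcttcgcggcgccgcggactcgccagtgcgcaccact
Socs1 (chr16:10785487-10785786, minus strand) held 2 IRF-like matches that overlap each other, and Socs3 (chr11:117969317-117969616, minus strand) held 1 GAS match beginning 154 bases before its RefSeq start site. This Socs3 window and its match lie inside the gene span chr11:117966079-117970047 given below, which comes from another annotation with a start farther upstream.
Socs1: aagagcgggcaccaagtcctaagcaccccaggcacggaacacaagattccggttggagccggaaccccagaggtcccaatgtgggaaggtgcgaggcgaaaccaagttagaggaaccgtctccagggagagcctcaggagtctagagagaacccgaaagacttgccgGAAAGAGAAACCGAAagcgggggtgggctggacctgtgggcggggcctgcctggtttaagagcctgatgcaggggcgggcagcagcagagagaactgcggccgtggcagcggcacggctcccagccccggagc
Socs3: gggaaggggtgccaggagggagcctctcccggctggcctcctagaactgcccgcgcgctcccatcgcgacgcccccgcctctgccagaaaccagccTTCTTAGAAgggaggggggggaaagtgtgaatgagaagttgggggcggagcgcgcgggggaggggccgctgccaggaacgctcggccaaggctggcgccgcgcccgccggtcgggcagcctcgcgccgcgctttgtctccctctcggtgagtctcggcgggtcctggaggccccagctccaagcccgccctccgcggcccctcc

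Among 32851 promoter windows of the same length, 8.30% held a GAS match and 8.56% an IRF-like match. The windows of Jak1 and Jak2, and a second start site of Irf1, held neither. Of the 8 members 7 had a promoter entry, and Ido1 had none. A match is a run of letters and was not tested as a binding site.

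Library totals were 13495835 to 25108601 counts in set 1 and 21987948 to 27658263 in set 2. Structural RNA (Rn7s1, Rn7s2, mt-Rnr1 and mt-Rnr2) took a median of 43.3% of the counts in set 1 and 14.4% in set 2. This share was also used to draw the sets. Values of different sets are therefore given side by side, and a difference between them cannot be told apart from the set. EMT-6 and epithelial markers (Krt8, Krt18, Krt19, Epcam, Cdh1 and Vim) summed to 2514 to 4667 CPM (counts scaled to library size) in bifunctional, 3362 to 4878 in set 2 trap control, 3681 to 5099 in anti-PD-L1, 2301 to 3623 in set 1 trap control and 2415 to 3763 in isotype control libraries. The bifunctional libraries C0479 and C0484 stood apart: summed skeletal muscle markers reached 3077 CPM in C0484, against a median of 5.21 over the 10 bifunctional libraries and 1.31 over the 10 anti-PD-L1 libraries, and summed keratinocyte markers reached 1805 CPM in C0479. In set 1 the trap control library C0463 held 7690 CPM of muscle markers, against a median of 1.11 over the 6 trap control libraries of that set and 1.01 over isotype control. For the members, pathway genes and markers named, results without C0479 and C0484 are given where a call was lost.

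Per length, in TPM (transcript share scaled by length), the members lay in the same order in bifunctional and anti-PD-L1 tumors. Irf1 was the most abundant, at a mean of 21.6 ± 3.13 TPM in bifunctional and 17.5 ± 2.60 TPM in anti-PD-L1 tumors (SD, n = 10 each), followed by Jak1 at 17.5 ± 3.9 TPM in bifunctional and 13.6 ± 3.34 TPM in anti-PD-L1 tumors. In bifunctional tumors Ifngr1 came next at 11.5 ± 2.86 TPM, then Socs3 at 10.5 ± 2.32, Jak2 at 7.66 ± 1.33, Ifngr2 at 6.15 ± 1.49, Socs1 at 3.36 ± 0.681 and Ido1 at 0.290 ± 0.475 TPM. In anti-PD-L1 tumors Ifngr1 had 7.99 ± 1.33 TPM, Socs3 7.80 ± 1.6 TPM and Jak2 7.09 ± 1.73 TPM, neighbours that differ by less than their SD. Below them in anti-PD-L1 tumors were Ifngr2 at 4.26 ± 0.680 TPM, Socs1 at 2.36 ± 0.652 TPM and Ido1 at 0.102 ± 0.124 TPM. The Ifngr1 transcript was thus the more abundant of the receptor pair, and the Jak1 transcript the more abundant of the kinases, in both groups.

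**Figure D1:**
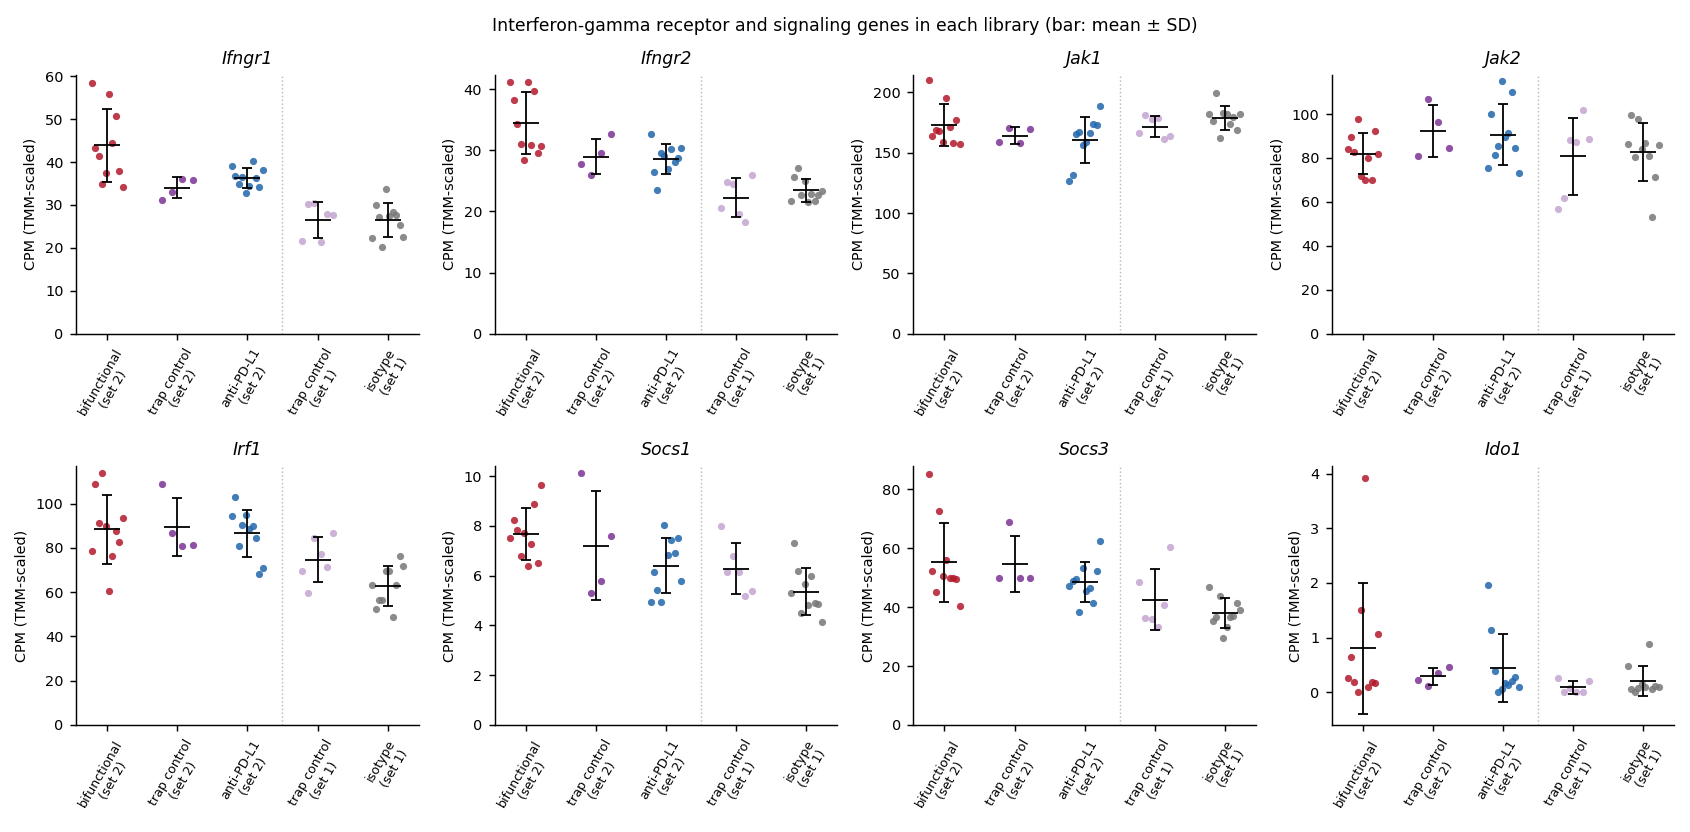
CPM (TMM-scaled, y axis) of the 8 genes in each of 40 libraries, by group and library set (x axis); points are libraries, bars the mean ± SD, and the dotted line parts set 2 from set 1. The bifunctional libraries reach 58.5 CPM for Ifngr1, where the highest anti-PD-L1 library has 40.2, while for Irf1 the bifunctional range of 60.4 to 114 CPM includes that of anti-PD-L1.

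Both receptor chains rose in bifunctional over anti-PD-L1 tumors, by small amounts. Ifngr1 (chr10:19591949-19610229, plus strand), the ligand-binding chain, had 34.3 CPM in the lowest, 42.3 at the median and 58.5 in the highest bifunctional library, against 32.9, 36.4 and 40.2 CPM in anti-PD-L1 libraries. The groups overlapped, with 6 of 10 bifunctional libraries above every anti-PD-L1 library. The log2 fold change was 0.24 (SE 0.0798, adjusted p = 0.0341, edgeR quasi-likelihood test over all 15704 genes, Benjamini-Hochberg). Ifngr2 (chr16:91547072-91565623, plus strand), the signaling chain, had 28.3, 32.7 and 41.2 CPM in bifunctional libraries and 23.5, 28.9 and 32.6 CPM in anti-PD-L1 libraries. Of the bifunctional libraries 5 lay above every anti-PD-L1 library, and the log2 fold change was 0.24 (SE 0.0732, adjusted p = 0.0242, edgeR). In bulk tumors a change in the number of cells of a type and a change in RNA per cell cannot be told apart.

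These 2 genes were the members called in this comparison, 2 of 8, with 25.6% of all genes called, so the share is near that of genes in general. The highest receptor levels were in C0479 (58.5 CPM of Ifngr1 and 41.1 of Ifngr2) and C0484 (55.8 and 41.2), the libraries rich in muscle and skin RNA. Without both, Ifngr1 was at 0.16 (adjusted p = 0.131) and Ifngr2 at 0.20 (adjusted p = 0.0959) in edgeR, and 760 genes were called in place of 4014. With the muscle score as a covariate they were at 0.15 (adjusted p = 0.211) and 0.17 (adjusted p = 0.142), with 757 genes called. Leaving out C0479 alone left 2141 genes called and ended both calls (Ifngr1 0.19, adjusted p = 0.0789; Ifngr2 0.21, adjusted p = 0.0531). Leaving out C0471, C0473, C0474, C0477, C0484 or C0486 alone also ended that of Ifngr1, at adjusted p of 0.0512 to 0.0551.

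Against the trap control the receptors were of similar size in difference but did not pass. The 4 trap control libraries of set 2 had 31.1, 33.1, 36.1 and 35.9 CPM of Ifngr1, and 8 of 10 bifunctional libraries lay above all of them; the log2 fold change was 0.34 (SE 0.107, adjusted p = 0.180, edgeR). For Ifngr2 they had 27.7, 25.9, 29.5 and 32.7 CPM, and the log2 fold change was 0.23 (SE 0.0979, adjusted p = 0.283). Trap control over anti-PD-L1 gave −0.11 (SE 0.106) for Ifngr1 and 0.01 (SE 0.0968) for Ifngr2, with overlapping groups. In set 1, Ifngr1 had 21.3, 27.7 and 30.4 CPM (lowest, median and highest) in 6 trap control libraries and 20.1, 27.3 and 33.7 CPM in 10 isotype control libraries, a log2 fold change of 0.00 (SE 0.109). Ifngr2 had 18.2, 22.5 and 25.9 CPM in trap control and 21.5, 22.8 and 27.1 CPM in isotype control libraries (−0.07, SE 0.0833).

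The receptor kinases showed no called difference. Jak1 (chr4:101152367-101265282, minus strand), which also serves type I interferon and gp130 receptors, had 157, 169 and 211 CPM (lowest, median and highest) in bifunctional and 126, 166 and 188 CPM in anti-PD-L1 libraries, with a log2 fold change of 0.07 (SE 0.0647, adjusted p = 0.412, edgeR). It had 159, 170, 158 and 170 CPM in the set 2 trap control, 161, 172 and 181 CPM in the set 1 trap control and 162, 181 and 200 CPM in isotype control libraries. Its group means were 161 to 179 CPM across all 5 combinations of group and set. Jak2 (chr19:29251828-29313080, plus strand), which also signals for growth hormone-type receptors, had 70.0, 82.2 and 97.8 CPM in bifunctional and 73.3, 87.5 and 115 CPM in anti-PD-L1 libraries, and its log2 fold change was −0.17 (SE 0.0877, adjusted p = 0.138). In bifunctional over anti-PD-L1 it was the member with a negative value, and 7 of 10 bifunctional libraries lay at or below the anti-PD-L1 median; on the TPM scale its sign was positive (0.11 with log2(TPM + 1), adjusted p = 0.433, limma), a scale on which all genes had a median of 0.15. Against the set 2 trap control (80.8, 107, 96.4 and 84.5 CPM) it was at −0.18 (SE 0.115, adjusted p = 0.414). In set 1 it had 56.8, 87.6 and 102 CPM in trap control and 53.3, 85.1 and 99.8 CPM in isotype control libraries, with a log2 fold change of −0.03 (SE 0.134).

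Irf1 (chr11:53770014-53778374, plus strand) was at nearly the same CPM with and without the trap arm in set 2. It had 60.4, 88.6 and 114 CPM in bifunctional and 68.2, 89.2 and 103 CPM in anti-PD-L1 libraries, and the log2 fold change was 0.00 (SE 0.102, adjusted p = 0.992, edgeR). The 10 bifunctional libraries covered the whole anti-PD-L1 range, with C0484 lowest and C0482 highest. Without C0479 and C0484 the value was 0.11 (adjusted p = 0.450), and on log2(TPM + 1) it was 0.29 (adjusted p = 0.0460, limma), where the all-gene median was 0.15. The set 2 trap control had 109, 86.5, 80.8 and 81.4 CPM, giving −0.03 (SE 0.135) for bifunctional over trap control and 0.03 (SE 0.135) for trap control over anti-PD-L1. In set 1, Irf1 had 59.7, 74.2 and 86.6 CPM in trap control and 48.9, 63.3 and 76.4 CPM in isotype control libraries. There 5 of 6 trap control libraries lay above the isotype control median, at a log2 fold change of 0.25 (SE 0.103, adjusted p = 0.134, edgeR).

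Of the feedback inhibitors neither passed. Socs1 (chr16:10782240-10785536, minus strand), which binds JAK kinases and dampens IFN-γ signals, had 6.41, 7.61 and 9.64 CPM in bifunctional and 4.95, 6.50 and 8.05 CPM in anti-PD-L1 libraries, with a log2 fold change of 0.23 (SE 0.119, adjusted p = 0.144, edgeR). The groups overlapped, with 3 bifunctional libraries above all of anti-PD-L1. The set 2 trap control had 10.1, 5.28, 5.80 and 7.61 CPM, and trap control over anti-PD-L1 was at 0.16 (SE 0.157). In set 1, all 6 trap control libraries (5.18, 6.15 and 7.99 CPM for the lowest, median and highest) lay above the isotype control median of 5.09 CPM, in a range of 4.12 to 7.31, at 0.22 (SE 0.130, adjusted p = 0.294).

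Socs3 (chr11:117966079-117970047, minus strand), induced by STAT3-type signals, had 40.3, 50.4 and 85.2 CPM in bifunctional and 38.4, 48.0 and 62.5 CPM in anti-PD-L1 libraries. Its highest values were in C0479 (85.2) and C0482 (72.8), and the log2 fold change was 0.15 (SE 0.109, adjusted p = 0.304, edgeR). The set 2 trap control had 50.1, 68.8, 49.8 and 50.03 CPM, and bifunctional over trap control was at −0.01 (SE 0.145). In set 1 it had 33.2, 38.7 and 60.4 CPM in trap control and 29.5, 36.9 and 46.9 CPM in isotype control libraries (0.16, SE 0.125, adjusted p = 0.426). On log2(TPM + 1), a scale with an all-gene median of 0.15, Socs1 and Socs3 each passed in bifunctional over anti-PD-L1, at 0.38 (adjusted p = 0.0385 and 0.0289, limma).

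Ido1 (chr8:24584136-24597009, minus strand) was near the limit of detection in most tumors and did not pass in any comparison. Bifunctional libraries held 8, 20, 7, 0, 54, 125, 3, 6, 5 and 31 counts in the order of their codes, and anti-PD-L1 libraries 60, 34, 13, 0, 2, 5, 4, 7, 9 and 3. A few libraries of each group carried most of the counts, led by C0484 among bifunctional and C0469 among anti-PD-L1 libraries. The log2 fold change was 0.81 with an SE of 0.753 (adjusted p = 0.430, edgeR), and 0.17 without C0479 and C0484. The set 2 trap control held 6, 3, 11 and 16 counts. In set 1, where Ido1 was below the filter for testing, 6 trap control libraries held 5 counts in all and 10 isotype control libraries 32.

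The ligand gene Ifng was rarer still. It summed to 63 counts in 10 bifunctional, 23 in 4 set 2 trap control and 22 in 10 anti-PD-L1 libraries, and to 7 counts in 6 set 1 trap control and 2 in 10 isotype control libraries. Of the bifunctional libraries 9 of 10 lay above the anti-PD-L1 median, while C0484, with the highest Ido1, held 0 Ifng counts. Ifng was below the filter for testing. With no filter, edgeR gave a log2 fold change of 1.41 (SE 0.558, adjusted p = 0.0897) for bifunctional over anti-PD-L1. It also gave 1.40 (SE 0.699, adjusted p = 0.910) for trap control over anti-PD-L1 and 0.01 (SE 0.672) for bifunctional over trap control. For trap control over isotype control in set 1 it gave 2.22 (SE 0.822, adjusted p = 0.164).

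**Figure D2:**
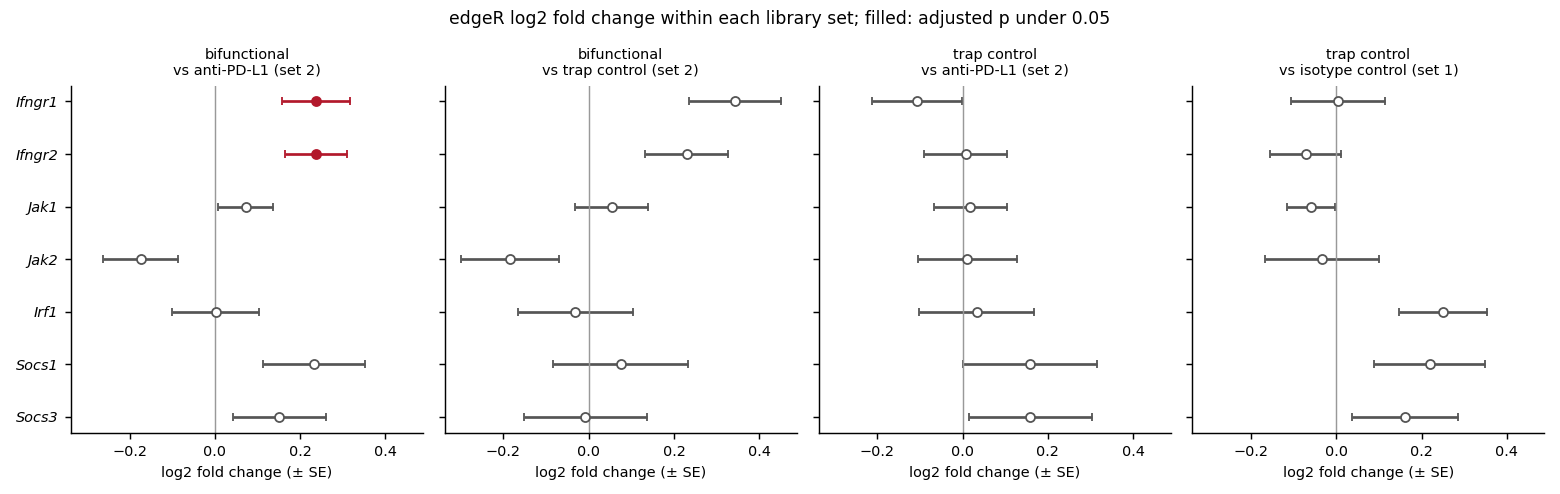
Log2 fold change (x axis) with its SE for 7 members (y axis) in the 4 comparisons within a library set, from edgeR; filled points have an adjusted p under 0.05, and Ido1, with an SE of 0.753, is left out. Filled points are Ifngr1 and Ifngr2 in bifunctional over anti-PD-L1.

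Around the members, more pathway genes rose than fell in bifunctional over anti-PD-L1 tumors. Over 8 lists of ligands and inducers, kinases and STATs, negative regulators, IRF factors, IFN-γ targets, other interferon receptors, gp130 and some other cytokines, and tryptophan enzymes, 43 of 104 genes tested rose and 1 fell (edgeR), with 12.4% of all genes called higher. Their median log2 fold change was 0.31, against 0.01 over all genes tested and 0.19 over the 8 members. Without C0479 and C0484, 7 of 103 rose at a median of 0.25, and with the muscle score 5 of 104 at 0.22. Over all genes, 760 of 15480 were called in either direction without both libraries, and 757 of 15704 with the muscle score. Genes of these lists that are named below follow a fixed rule. Exceptions are Il18rap, Kynu and Tdo2, and in this comparison Tiparp and the class I presentation genes, which were named after their values were seen.

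Among the inducers of IFN-γ, 5 of 12 genes tested rose and 1, Il18rap, a chain of the IL-18 receptor, fell by 0.37 (adjusted p = 0.0423, edgeR). Stat4, which carries the IL-12 signal in T and NK cells, rose to 1.73 ± 0.620 CPM in bifunctional tumors, against 0.865 ± 0.171 CPM in anti-PD-L1 tumors (SD, n = 10 each; log2 0.96, SE 0.193, adjusted p = 0.00499, edgeR). Il18r1, a chain of the IL-18 receptor, rose by 1.05 (adjusted p = 0.00606) and Il12rb2, a chain of the IL-12 receptor, by 0.86 (adjusted p = 0.0301). Among kinases and STATs, Stat2, a part of the factor that carries type I interferon signals, rose by 0.61 (adjusted p = 0.0192) and Jak3, a kinase of lymphocyte cytokine receptors, by 0.21 (adjusted p = 0.0449).

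Of 11 IRF factors and transactivators 8 rose; Irf1, as a member, is not among them. Irf7, a driver of type I interferon genes, had 36.9, 50.6 and 71.9 CPM in bifunctional and 18.1, 31.7 and 45.0 CPM in anti-PD-L1 libraries, with 8 of 10 bifunctional libraries above every anti-PD-L1 library, and rose by 0.77 (SE 0.164, adjusted p = 0.00584, edgeR). It also passed without C0479 and C0484 (0.75, adjusted p = 0.0237) and with the muscle score (0.69, adjusted p = 0.0290). Batf2 rose by 0.67 (adjusted p = 0.0134), Ciita, the master regulator of MHC class II, by 0.98 (adjusted p = 0.0186), and Irf5 by 0.37 (adjusted p = 0.0159). Of 28 IFN-γ targets 13 rose at a list median of 0.55, among them the chemokine Cxcl11 (1.00, adjusted p = 0.0121), the immunity-related GTPase Irgm2 (0.57, adjusted p = 0.0148), the class II invariant chain Cd74 (0.80, adjusted p = 0.0210) and the complement inhibitor Serping1 (1.10, adjusted p = 0.0191). The class I presentation genes of the same list were not called. Psmb8 was at −0.22, Psmb9 −0.03, Psmb10 −0.13, Tap1 0.11, Tap2 0.02, B2m 0.09, H2-K1 0.07 and H2-D1 0.08. Their adjusted p was 0.120 to 0.895 (edgeR). Without C0479 and C0484, 1 of the 28 targets passed, at a list median of 0.43, with 760 of all 15480 genes called. Trap control over anti-PD-L1 had Irf7 at 0.72 (SE 0.209, adjusted p = 0.694, edgeR) and Cxcl11 at 1.25 (SE 0.321, adjusted p = 0.586). For bifunctional over trap control they were at 0.05 (SE 0.216) and −0.26 (SE 0.329). In these 2 comparisons the IRF list had medians of 0.25 and 0.34 and the target list 0.20 and 0.08, with no gene called.

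Among 15 negative regulators 4 rose: Cish (0.93, adjusted p = 0.0164), a SOCS-family inhibitor of STAT5 signals, the phosphatases Ptpn6 (0.36, adjusted p = 0.0215) and Ptpn1 (0.32, adjusted p = 0.0243), and Pias1 (0.17, adjusted p = 0.0249), a SUMO ligase that restrains STAT signaling. All 4 type I and III interferon receptor chains rose, with Ifnar1 at 0.21 (SE 0.0572, adjusted p = 0.0147) and Il10rb at 0.34 (adjusted p = 0.0160). Of 15 genes on the gp130 cytokine list 4 rose, including the shared receptor Il6st (0.47, adjusted p = 0.0166, edgeR) and Lifr (1.13, adjusted p = 0.0167). That list also holds genes of other cytokine systems, such as Il10ra (0.60, adjusted p = 0.0139), a chain of the IL-10 receptor, which also rose. Of 11 tryptophan genes tested, 2 rose: Kynu (1.27, adjusted p = 0.0484), which acts downstream of IDO1, and Cyp1b1 (1.81, SE 0.375, adjusted p = 0.00529), a target of the receptor that senses kynurenine. Tiparp, another target of that receptor, was at −0.29 (SE 0.189, adjusted p = 0.253, edgeR), and 6 of the 11 had a positive log2 fold change. The list medians ran from 0.03 for tryptophan genes to 0.55 for IFN-γ targets and for ligand and inducers.

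Most of these calls were lost without C0479 and C0484. Of 26 pathway genes named by the rule in this comparison, 6 passed without both libraries: Stat4 (0.83), Il18r1 (0.97), Irf7, Batf2 (0.70), Cxcl11 (1.03) and Cyp1b1 (1.51), with adjusted p of 0.0231 to 0.0436 (edgeR). The other 20 had a positive log2 fold change and adjusted p of 0.0525 to 0.159. Among these, Lifr was at 0.54, Serping1 at 0.62, Cish at 0.53 and Il6st at 0.30 without both libraries. Without them no kinase or STAT, negative regulator, interferon receptor chain or gene of the gp130 list passed, and neither did Il18rap or Kynu. Inducers of IFN-γ had 3 of 12 genes called higher, IRF factors and transactivators 2 of 11 and tryptophan genes 1 of 11. In that setting 760 of all 15480 genes were called in either direction.

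**Figure D3:**
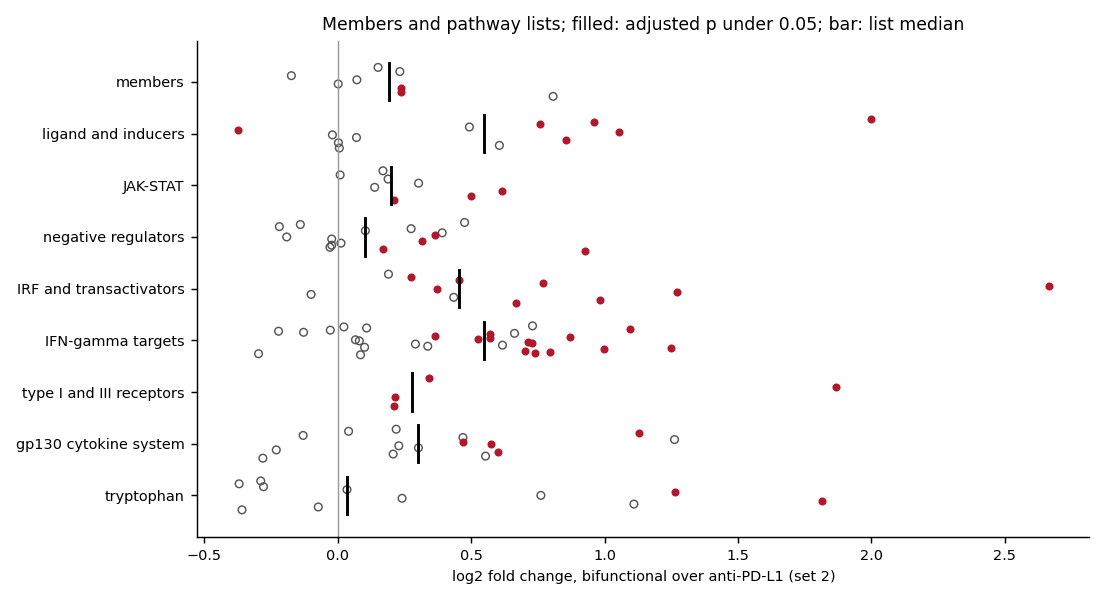
Log2 fold change of bifunctional over anti-PD-L1 tumors (x axis, edgeR, set 2) for the members and 8 pathway lists (y axis); each circle is a gene, filled where its adjusted p is under 0.05, and the bar is the list median. The members sit at a median of 0.19 and the IFN-γ targets at 0.55.

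Markers of some cell types rose as well. In bifunctional over anti-PD-L1, 9 of 13 T cell markers, 8 of 10 markers of cytotoxic lymphocytes and NK cells and 8 of 11 macrophage markers rose, as did 8 of 9 muscle and both tested keratinocyte markers (edgeR). Of the other cell type lists, 3 of 9 dendritic cell, 2 of 7 fibroblast, 2 of 6 adipocyte, 1 of 7 endothelial and 0 of 7 neutrophil markers rose. Of 6 EMT-6 and epithelial markers 1 rose and 1 fell. Over all genes, 12.4% were called higher. Without C0479 and C0484, 7 of 13 T cell, 5 of 10 cytotoxic and NK and 1 of 11 macrophage markers rose, and no muscle or keratinocyte marker passed. In that setting 760 of all 15480 genes were called. The macrophage list then had a median log2 fold change of 0.33, against 0.54 with both libraries, and the T cell list 1.12 against 1.21. With the muscle score as a covariate, 5 of 13 T cell, 5 of 10 cytotoxic and NK and 1 of 11 macrophage markers rose, with 757 of all 15704 genes called. Summed T cell markers were 10.3 to 23.4 CPM in bifunctional and 7.07 to 11.4 CPM in anti-PD-L1 libraries, summed cytotoxic and NK markers 16.2 to 33.5 CPM in bifunctional and 6.81 to 13.8 CPM in anti-PD-L1 libraries. Summed macrophage markers were 892 to 2220 CPM in bifunctional and 728 to 1231 CPM in anti-PD-L1 libraries. In the set 2 trap control these sums were 10.3 to 17.9, 13.8 to 28.8 and 751 to 1090 CPM. No marker of these 3 lists was at 0 in all libraries of these groups. Their part in the differences was not tested.

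Within groups, the receptor transcripts followed the macrophage score, which is the mean log2(CPM + 1) of 11 macrophage genes, across the 24 libraries of set 2. With group means removed, Pearson's r was 0.763 for Ifngr1 (adjusted p = 0.0138) and Spearman's rho 0.681 (adjusted p = 0.0458), by permutation within groups. For Ifngr2, r was 0.818 (adjusted p = 0.00512) and rho 0.823 (adjusted p = 0.00256). Leaving out the 2 libraries farthest from the median score, C0482 and C0484, left r at 0.663 and 0.794. Without C0479 and C0484, Ifngr2 stayed past the threshold (r 0.732, adjusted p = 0.0346; rho 0.727, adjusted p = 0.0365; n = 22), while Ifngr1 did not (r 0.598, adjusted p = 0.170; rho 0.526, adjusted p = 0.240). These were 2 of 64 relations computed, of the 8 members to Ifng and to T cell, cytotoxic and macrophage scores in each set, and the others did not pass both tests. In set 1, r of Ifngr1 with the macrophage score was 0.590 (permutation adjusted p = 0.152, n = 16) and 0.271 without C0452 and C0462. For Ifngr2 in set 1, r was 0.589 (permutation adjusted p = 0.231) and 0.604 without the same libraries. Socs1 and Irf1 had r of 0.594 and 0.521 with Ifng in set 2 (permutation adjusted p = 0.0948 and 0.152), and 0.463 and 0.351 without C0465 and C0480.

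**Figure D4:**
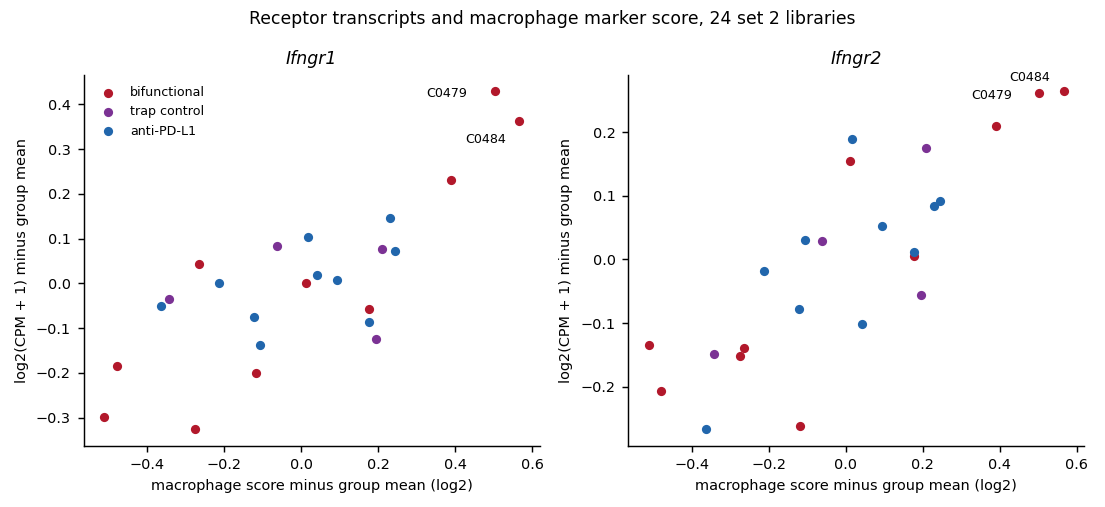
Log2(CPM + 1) of Ifngr1 (left) and Ifngr2 (right) against the macrophage score, both as differences from their group mean, in 24 set 2 libraries coloured by group. The libraries C0479 and C0484 lie at the upper right in both panels, and r is 0.763 for Ifngr1 and 0.818 for Ifngr2.

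In the other comparisons within sets none of the members was called. For bifunctional over trap control, 0 of 8 passed in edgeR, with 0.00637% of all genes called. There 2 members, Ifngr1 and Ifngr2, had an unadjusted p under 0.05, as had 2427 of all 15704 genes. In DESeq2 and in limma on TPM 0 members passed. None of the 104 pathway genes passed in edgeR or DESeq2 (10 at an unadjusted p under 0.05), with a median of 0.13. For trap control over anti-PD-L1, 0 of 8 members passed in edgeR, with 0.0127% of all genes called, 0 at an unadjusted p under 0.05 and 0 in DESeq2. Of the 104 pathway genes 0 passed in either tool and 15 had an unadjusted p under 0.05, as had 772 of all 15704 genes. The median of the pathway genes was 0.13 here too. These comparisons rest on 4 trap control libraries and share them.

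Between trap control and isotype control in set 1, 0 of 7 members tested passed in edgeR, with 7.34% of all genes called. There 1 member, Irf1, had an unadjusted p under 0.05, as had 3718 of all 14183 genes, and 0 members passed in DESeq2. Of 91 pathway genes 6 rose and 3 fell. Stat5b, a STAT of growth hormone and IL-2 signals, had 31.7, 37.5 and 45.3 CPM in trap control and 27.5, 28.8 and 32.4 CPM in isotype control libraries, with 5 of 6 trap control libraries above every isotype control library, and rose by 0.37 (SE 0.0745, adjusted p = 0.0174, edgeR). Stat3 rose by 0.26 (adjusted p = 0.0413), Irf3 by 0.32 (adjusted p = 0.0320), the immunoproteasome subunit Psmb10 by 0.50 (adjusted p = 0.0416), the peptide transporter Tap2 by 0.35 (adjusted p = 0.0448) and Socs7 by 0.24 (adjusted p = 0.0453). Cish fell by 0.61 (adjusted p = 0.0489) and Tiparp, a target of the aryl hydrocarbon receptor, by 0.44 (adjusted p = 0.0394); Tdo2, a liver-type tryptophan dioxygenase, was the third gene that fell. Of the 8 named by value, Stat5b alone kept its call when each of the 16 libraries was left out in turn, and on the TPM scale none of the 8 passed in limma. Macrophage markers summed to 460 to 921 CPM in trap control and 359 to 692 CPM in isotype control libraries, and their part in these differences was not tested. Without C0463, 724 genes were called in place of 1041, Stat5b was at 0.31 (adjusted p = 0.0283) and Irf1 at 0.26 (adjusted p = 0.143).

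The trap control was measured in both sets, which gives the size of the set difference itself. Set 1 over set 2 trap control tumors gave Ifngr1 a log2 fold change of −0.36 (SE 0.131, adjusted p = 0.0218, edgeR over all 40 libraries) and Ifngr2 by −0.38 (SE 0.107, adjusted p = 0.00348), 2 of 8 members, with 49.9% of all genes called. These libraries share a treatment, so the set and whatever goes with it cannot be told apart. Of 103 pathway genes 13 were higher and 31 lower in set 1. Without C0462, C0467 or C0468 1 member was called in place of 2, and without C0479 and C0484 in the fit 3 were, with Socs3 at −0.37 (adjusted p = 0.0350).

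Whether adding the trap acts differently on an active and on an inactive PD-L1 arm was tested as the difference of the bifunctional over anti-PD-L1 and the trap control over isotype control log2 fold changes. The first fold change lies in set 2 and the second in set 1. A trap effect that varies with the PD-L1 arm therefore cannot be told apart from one that varies with the set. No member passed in edgeR (0 of 8, with 7.91% of all genes called). An unadjusted p under 0.05 was seen for 4355 of all 16174 genes and for 1 member, which passed in DESeq2. That member was Ifngr2, at 0.34 (SE 0.115, adjusted p = 0.0548, edgeR). It passed without C0461 (0.37, adjusted p = 0.0499) or C0464 (0.39, adjusted p = 0.0308), and was at 0.29 (adjusted p = 0.105) without C0463 and 0.27 (adjusted p = 0.144) without C0479 and C0484. Bridged through the trap control of both sets, bifunctional over isotype control called 0 of 8 members in edgeR, with 2.39% of all genes called. It had 1 member at an unadjusted p under 0.05 (Ifngr1, 0.37, SE 0.161, adjusted p = 0.176, edgeR), with 3376 of all 16174 genes there, and called 0 members in DESeq2. Anti-PD-L1 over isotype control, bridged in the same way, called 0 of 8, with 0.0124% of all genes called, 0 at an unadjusted p under 0.05 and 0 in DESeq2. Bridging removes only a set difference that is the same in all groups.

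Ratios of members within a library, on log2(TPM + 0.1), showed whether the parts of the receptor complex changed against each other. None of 24 ratio differences passed after adjustment over all 24, by permutation tests that were exact for groups under 10; 1 had an unadjusted p under 0.05. It was Jak2 over Jak1, at −1.17 ± 0.223 in bifunctional and −0.92 ± 0.289 in anti-PD-L1 tumors (SD, n = 10 each), a difference of −0.25 (permutation p = 0.0462, adjusted p = 0.624), and 1 of 10 bifunctional libraries exceeded the median of anti-PD-L1. The lowest bifunctional values were −1.59 in C0484 and −1.43 in C0479, and without both libraries, an alternative chosen after seeing the data, the difference was −0.16 (exact permutation test, adjusted p = 0.703). Ifngr2 over Ifngr1 was −0.88 ± 0.202 in bifunctional and −0.89 ± 0.147 in anti-PD-L1 tumors.

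**Figure D5:**
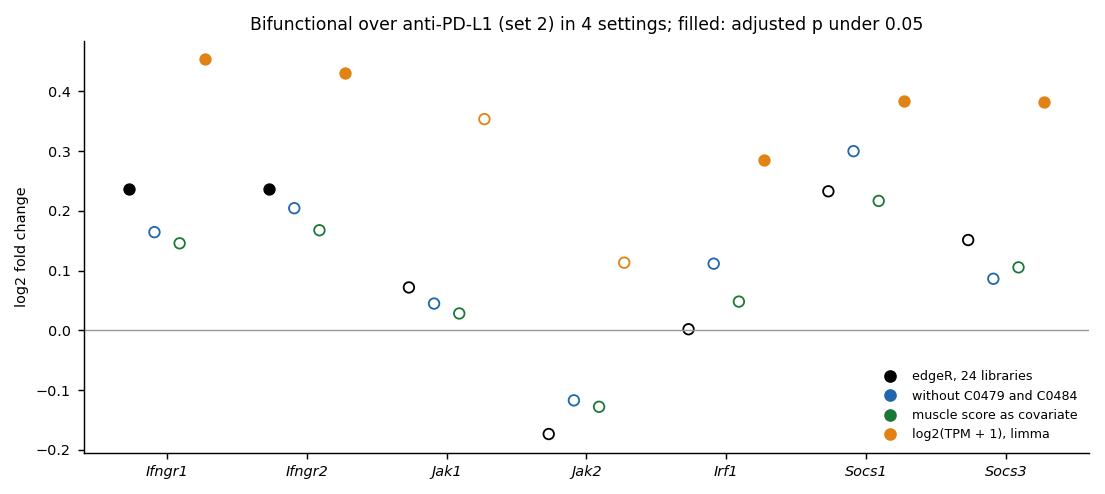
Log2 fold change of bifunctional over anti-PD-L1 tumors (y axis) for 7 members (x axis) in 4 settings; filled points have an adjusted p under 0.05. The receptor values of 0.24 lie at 0.16 and 0.20 without C0479 and C0484, and the TPM values lie higher, where the median of all genes is 0.15.

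The genes most like each member in set 2 were taken as the 3 protein-coding genes, of 12294 with a mean of at least 1 CPM, with the highest Spearman's rho of group-centred log2(CPM + 1) over 24 libraries, as a description. Irf1 lay closest to Gbp2 (rho 0.877 in set 2, 0.753 in the 16 set 1 libraries), Psmb9 (0.824 and 0.662) and Gsdmd (0.815 and 0.841). Gbp2 and Psmb9 are interferon-induced genes for a guanylate-binding protein and an immunoproteasome subunit, and Gsdmd encodes the pore-forming gasdermin D. Ifngr1 lay closest to Slco2b1 (0.888 and 0.706), Nagpa (0.877 and 0.862) and Clcn4 (0.871 and 0.821), and Ifngr2 to Myo1f (0.883 and 0.465), Slc7a7 (0.857 and 0.465) and Abcb1b (0.850 and 0.338). Jak2 lay closest to Ikzf2 (0.801 and 0.721), Map4k5 (0.767 and 0.365) and Ngef (0.746 and 0.659). Jak1 lay closest to Reep3 (0.895 and 0.700), Mon2 (0.884 and −0.088) and Sbf2 (0.859 and −0.191), of which Reep3 alone had a positive rho in set 1. Socs1 lay closest to Nlrc5 (0.749 and −0.403), Prox2 (0.671 and −0.141) and Tnfsf13b (0.665 and −0.006), and Socs3 to Rarres2 (0.852 and 0.126), Ndufa1 (0.797 and 0.021) and Timp1 (0.768 and −0.374). Among the members themselves Ifngr1 and Ifngr2 had the highest rho in each set (0.759 in set 2, 0.453 in set 1), while Irf1 and Ifngr1 stood at −0.418 and −0.115. Libraries share depth and tissue makeup, so these values are descriptions.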

How the data were processed

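The authors deposited, per gene and library, expected counts and TPM from RSEM 1.2.31 with Bowtie2 2.3.1 on mm10, per the submitters' processing notes; the labels give ribosomal depletion and random priming. The authors' annotation release, strand setting and library kit are not given in the sources used here. Expected counts, 14.01% of them not whole, were rounded and tested with the quasi-likelihood F test of edgeR 4.0.16 (R 4.3.3): TMM scaling, default filter on low counts, 1 mean per group, Benjamini-Hochberg adjustment over all genes, threshold 0.05. One fit held the 24 set 2 libraries, 1 the 16 set 1 libraries, and 1 all 40, with a mean for each of 5 combinations of group and set. CPM in the text is TMM-scaled over all 40 libraries. Gene symbols came from an annotation table that matched 37607 of 39012 identifiers. Gene coordinates are from GENCODE M21 on mm10 (GRCm38), and promoters from RefSeq on GRCm38.p6. Ratios used log2(TPM + 0.1) and 100000 resamples, or all regroupings where a group was under 10. DESeq2 1.42.0 and limma 3.58.1 were alternatives. Fits were tested on simulated data.

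Each library is labelled as a tumor of 1 mouse, and p-values measure the spread between these libraries. No 2 libraries of a group agreed within counting noise. The members, the gene lists and the naming rule (up to 4 genes per list and comparison with the smallest adjusted p and at least 1 CPM) were chosen with earlier results of these data known; 1 gene that the rule picks is not reported here. Some genes of the lists share reads with close paralogs.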

Additional observations from a re-analysis of the deposited data

Results flagged for a closer look

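Of 40 combinations of gene, group and set checked for a library far from the others (Dixon's ratio at the 95% level, which flags about 1 in 20 by chance), 2 stood out. Ido1 in the bifunctional library C0484 was at 3.93 CPM, with a gap to the next library of 0.616 of the group's range. Socs3 in the set 2 trap control library C0466 was at 68.8 CPM, with the other 3 trap control libraries of that set at 49.8 to 50.1.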

How the results depend on the processing

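Of 8 members in bifunctional over anti-PD-L1, 2 were called, against 1 with no filter, 5 with log2(TPM + 1) or log2(TPM + 0.1) in limma, 0 with the muscle score as a covariate and 0 without C0479 and C0484 (0 to 2 when leaving out 1 library). Over all genes, 3473 of 26057 were called with no filter, and 3086 and 3158 of 15704 in the TPM settings. Within trap control the set difference called 2 members, 7 in either TPM setting and 1 to 3 when leaving out 1 trap control library. In the TPM settings 11014 and 11659 of all 16174 genes were called. Jak1 was at −1.06 and −1.17 in TPM, with all genes at a median of −0.55 and −1.01. The interaction called 1 member with a mean of at least 1 CPM and 1 with DESeq2 (0 to 1 when leaving out 1 trap control library). Over all genes it called 1379 of 14211 and 1815 of 16174 in these 2 settings. Of the relations, 2 passed both tests, against 14 with log2(TPM + 0.1) and 1 without C0479 and C0484. Counts over all genes also moved. For bifunctional over anti-PD-L1, 4014 were called, and 2141 to 5242 when leaving out 1 library. DESeq2 called 214 against 1 for bifunctional over trap control, 1713 against 1041 for trap control over isotype control, where limma on TPM called 2, and 865 against 386 for bifunctional over isotype control. Leaving C0479 and C0484 out of the ratios and of the fit over both sets was chosen after seeing the data; the interaction then called 522 genes against 1279, and bifunctional over isotype control 47 against 386.

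The other sign changes were these. For bifunctional over anti-PD-L1, Irf1 was at −0.0108 with no filter and −0.0213 with structural RNA as a covariate (−0.0375 to 0.0788 when leaving out 1 library), and Jak2 at 0.113 and 0.130 in TPM. For bifunctional over trap control, Socs3 was at 0.001 with DESeq2 size factors and with DESeq2, 0.008 with the 1 CPM filter, 0.0134 over all 40 libraries and 0.168 and 0.182 in TPM; Jak2 at 0.0303 and 0.0325 in TPM; and Irf1 at 0.152 and 0.160 in TPM and 0.0547 without C0479 and C0484. Leaving out 1 library gave Irf1 −0.081 to 0.0706, Socs1 −0.0467 to 0.278 and Socs3 −0.0875 to 0.123. For trap control over anti-PD-L1, Ifngr2 was at −0.105 and −0.129 in TPM and −0.0401 with the muscle score, and Jak1 at −0.0116 with the muscle score. Leaving out 1 library gave Ifngr2 −0.052 to 0.0802, Jak1 −0.007 to 0.0457, Jak2 −0.043 to 0.0828, Irf1 −0.0601 to 0.0863, Socs1 −0.0365 to 0.30 and Ido1 −0.94 to 0.0866. For trap control over isotype control, Ifngr1 was at −0.001 with DESeq2 size factors, −0.0126 with no filter, −0.0002 with the 1 CPM filter, −0.0011 with DESeq2 and −0.0125 with structural RNA as a covariate (−0.0495 to 0.0543 when leaving out 1 library), and Jak2 at −0.11 to 0.0485. Cish, called at −0.61 there, was at 0.0154 and 0.0866 in TPM. Socs1 in the set difference was at −0.33 to 0.0014 when leaving out 1 trap control library, and Ifngr2 in anti-PD-L1 over isotype control was at 0.0915 and 0.0704 in TPM. The cause of these shifts was not tested.

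Of 872 values in settings other than leaving out 1 library, 744 kept their direction and side of the threshold. No paired analysis was possible because the labels give no replicate numbers shared between groups. Low counts limit Ifng and Ido1, and 4 trap control libraries limit the set 2 comparisons with that group.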
